A study of Mus musculus with 19 samples.

Results

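The marker-high group consists of 3 libraries of CD8 T cells taken early from liver tumours, which were set against 3 libraries of naive CD8 T cells, together 6 of the 19 libraries in the series. The libraries were chosen by the sort named in the sample labels, not by any expression value. Every cell studied came from C57BL/6 mice and carried a transgenic T cell receptor. The marker-high cells bore the SV40-I receptor, which is specific for an epitope of SV40 large T. They were recovered at days 8 to 9 out of malignant lesions of the liver and gated as CD8+ Thy1.1+, high for PD1, for LAG3 and for CD39. The naive cells bore the same SV40-I receptor and were sorted as CD8 cells low in CD44, with no time given. Marker-low SV40-I cells (days 8 to 9, also from lesions, low PD1, LAG3 and CD39) and late SV40-I cells (days 20 to 21, sorted on CD8 and Thy1.1 with no marker gate) serve below only to show where the marker-high cells differ from them. OT-I cells, which see an ovalbumin peptide, were also taken from lesions at days 20 to 21 and entered the joint fit. The count tables head the marker-high libraries with the letters WT and the marker-low libraries with KO, but the labels name no genotype, so gate and these letters cannot be told apart between those groups. The labels give no sex, age or animal for any library, and their source field says splenocytes for all of them, lesion cells included, so the tissue of the naive cells is not settled, and tissue, time and antigen exposure cannot be told apart between marker-high and naive cells.

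Naive CD8 T cells rest, recirculate through lymphoid organs and depend on survival signals such as interleukin-7. Antigen receptor signalling drives them to divide, to make cytotoxic granules and cytokines, and to leave lymphoid homing behind. When antigen persists, as in a tumour, the cells come to display inhibitory receptors and transcription factors such as TOX, a state known as dysfunction or exhaustion. In that state killing and cytokine release are curbed, and the early phase of it overlaps in time with cell division.

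Gene expression was measured by sequencing amplified cDNA, and the deposited values are counts of fragments per gene. Library totals ran from 38830547 counts upward in the marker-high group and up to 51599398 counts in the naive group. Levels below are normalized counts (CPM, scaled to library size with TMM factors) and follow library order 1, 2, 3. Differences are log2 fold changes, marker-high over naive, slightly shrunken by the fit, with a standard error. That error was worked back from the test as the unshrunken change over the square root of its F value. A gene was called higher or lower when its edgeR quasi-likelihood p-value, adjusted over all 16404 genes tested, was under 0.05, and "rose" and "fell" mean such a call. Marker-high library 3 stood apart from libraries 1 and 2. Pairs within the group differed with a chi-square per degree of freedom of 74 between libraries 1 and 2, and of 316 and 333 against library 3. Naive pairs differed by 111 to 303 and marker-low pairs by 108 to 485, so spreads near this size were not particular to the marker-high group. On the second principal component of all 15 ex vivo libraries (17% of their variance) library 3 lay at −10.0, against 78.5 and 67.7 for libraries 1 and 2. Counts of list members with library 3 below or above both others are given below. The same count over all genes was not made, so a shift particular to a list cannot be told from a general one. Genes of other cells were also present: the 12 macrophage markers summed to 5982, 4006 and 4736 CPM in marker-high libraries, against 283, 142 and 109 CPM in naive libraries, and 6 of the 12 rose. Lyz2, lysozyme of myeloid cells, stood at 3025 to 3740 CPM in marker-high libraries, against 30.9 to 103 CPM in naive libraries, and Vsig4, of liver macrophages, had no count in naive libraries. For hepatocytes, the 16 markers summed to 618, 290 and 396 CPM in marker-high libraries, against 20.04, 12.4 and 7.61 CPM in naive libraries, and 3 of the 16 rose, while albumin (Alb) stood at no more than 6.79 CPM and did not pass the test. The 10 neutrophil markers summed to 966, 362 and 324 CPM in marker-high cells, against 51.7, 19.3 and 6.61 CPM in naive cells, and 2 of the 10 rose. The part of these cells in the results was not tested, except where a value is given below.

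Marker-high cells differed from naive cells in 3841 of 16404 genes, or 23.4%. Of these, 2349 rose (14.3% of the genes tested) and 1492 fell (9.1%). Counts of list members below are to be read beside these general shares. Between the 2 groups the 3 + 3 values did not overlap for 7456 genes, or 45.5%, so a lack of overlap alone is common here. The median log2 fold change of all genes was 0.06, and −0.06 under upper-quartile scaling, which also moved the share of calls that were higher to 51.9%, against 61.2% with TMM. With the macrophage marker level as a covariate, 829 genes rose and 536 fell, and with the hepatocyte marker level 1017 rose and 802 fell. Both marker levels were higher in every marker-high library than in every naive library. Such a covariate thus follows the comparison itself and lowers its precision. RNA of other cells and lost precision cannot be told apart when a call ends in these fits. Leaving out naive library 3 gave 1542 higher and 905 lower, and leaving out marker-high library 1 or 2 gave 794 or 745 lower. Without marker-high library 3, 2150 rose and 1431 fell.

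**Figure D1:**
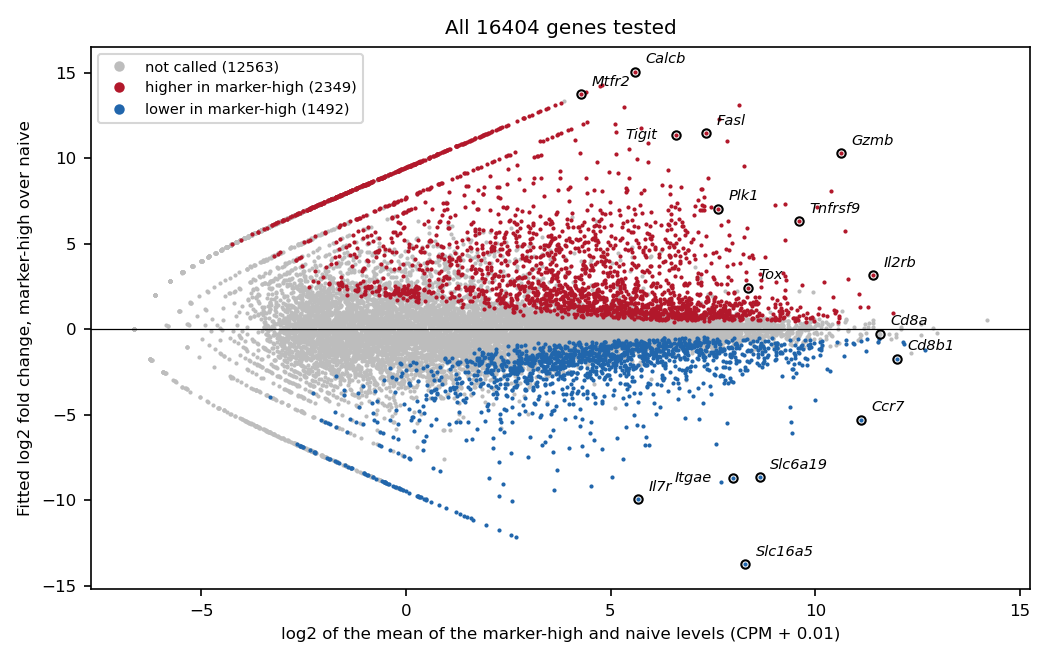
Fitted log2 fold change, marker-high over naive, on the vertical axis against log2 of the mean CPM of both groups (plus 0.01) on the horizontal axis, 1 point a gene, with red for calls higher in marker-high cells, blue for calls lower and grey for the rest; named genes are circled. The 2349 genes that rose outnumber the 1492 that fell.

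Identity markers of T cells were present at high level in both groups. Cd3e, a signalling chain of the receptor complex, stood at 2572, 2516 and 2809 CPM in marker-high cells and at 3270, 3405 and 3415 CPM in naive cells, and Cd8a at 2605, 2526 and 3249 CPM in marker-high cells, against 3498, 3471 and 3073 CPM in naive cells. Neither passed the test, nor did the receptor constant genes Trac, Trbc1 and Trbc2. No member of the 15-gene identity list rose and 6 fell, with a median of −0.73. The largest of these falls were in genes of the receptor and its nearest signalling step. Lat, the adaptor downstream of the receptor, had 360, 357 and 130 CPM in marker-high cells, against 1124, 1326 and 974 CPM in naive cells (−2.01 ± 0.33). Cd8b1, the beta chain of CD8, had 1887, 2056 and 1817 CPM in marker-high cells, against 6207, 7361 and 5259 CPM in naive cells (−1.71 ± 0.21, edgeR adjusted p = 1.16e-04). Cd247, the zeta chain, fell by 1.05 ± 0.17, Cd3d by 1.74 ± 0.43, Lck by 0.73 ± 0.18 and Cd6 by 1.39 ± 0.46. With the macrophage marker level as a covariate 1 of the 15 fell, with Lat and Cd247 no longer called (edgeR adjusted p = 0.0583 and 0.114), and with the hepatocyte marker level 3 fell. In bulk libraries such as these, fewer cells of a type and less RNA per cell cannot be told apart.

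The genes behind the gates followed the sort, which is a check of the labels and not a finding. Pdcd1 (PD1) had 2342, 2204 and 3399 CPM in marker-high libraries and 5.12, 11.2 and 12.8 CPM in naive libraries. Entpd1 (CD39) had 175, 206 and 397 CPM in marker-high cells, against 2.16, 4.23 and 1.25 CPM in naive cells, and Lag3 had 47.7, 36.2 and 30.9 CPM in marker-high cells, against 0.0380, 0.0434 and 0 CPM in naive cells. Cd44, on which the naive cells were gated low, stood at 116, 126 and 199 CPM in marker-high libraries, against 10.3, 0.846 and 5.95 CPM in naive libraries.

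Tox rose 2.44 ± 0.36 log2 units (edgeR adjusted p = 4.46e-04). This gene on chromosome 4 (GRCm38, 6686353 to 6991557, minus strand) encodes the DNA-binding factor after which the series is titled. It had 358, 571 and 731 CPM in marker-high cells, against 91.7, 89.5 and 124 CPM in naive cells, so Tox was already measurable in the naive libraries and the groups did not overlap. With the macrophage markers as a covariate the estimate was 1.79 and the call ended (edgeR adjusted p = 0.0758). That covariate follows the groups compared, so macrophage RNA and lost precision cannot be told apart here.

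Of 17 transcription factors tied to exhaustion or chronic receptor signalling, 8 rose, none fell, and the median was 2.44, against 0.06 over all genes. Bhlhe40, a basic helix-loop-helix repressor induced by receptor signalling, had 173, 172 and 126 CPM in marker-high cells, against 5.43, 3.02 and 3.69 CPM in naive cells (5.28 ± 0.41, edgeR adjusted p = 3.17e-06). Nfil3, a basic leucine zipper factor, had 38.7, 32.7 and 81.7 CPM in marker-high cells, against 0, 0 and 0.167 CPM in naive cells (9.79 ± 1.04). Nr4a2, an orphan nuclear receptor induced by antigen, had 18, 11.7 and 14.2 CPM in marker-high cells and no count in any naive library, at least 717-fold higher against a floor of 3 counts over the naive group. Its NR4A relatives also rose. Nr4a1 had 271, 173 and 112 CPM in marker-high cells, against 56.9, 49.7 and 65.8 CPM in naive cells (1.69 ± 0.44), whereas Nr4a3 stood at 1.61, 0.961 and 0.129 CPM in marker-high cells, against 0.133, 0.0217 and 0.0626 CPM in naive cells, and overlapped. Tox2, a relative of Tox, had 6.76, 12.5 and 2.19 CPM in marker-high cells with a single count in the naive group (ratio 1054, 95% interval 189 to 41690). Irf4, a receptor-induced factor, was uneven: 52.9 and 67.7 CPM in marker-high libraries 1 and 2 but 5.12 CPM in library 3, below the lowest naive value of 5.75 CPM, and it passed the test (2.57 ± 0.74). Nfatc1, Batf, Maf, Prdm1, Ikzf2 and the early response genes Egr1, Egr2 and Egr3 did not pass.

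Among 8 factors of effector cells, 2 rose, where 14.3% of all genes tested rose. Tbx21, encoding T-bet, had 37.0, 30.7 and 25.8 CPM in marker-high cells, against 0.0949, 0.108 and 0.104 CPM in naive cells (8.21 ± 0.85). Id2, an inhibitor of E proteins, had 346, 476 and 447 CPM in marker-high cells, against 104, 127 and 44.2 CPM in naive cells (2.21 ± 0.37). Eomes, the T-bet relative linked to memory and late exhaustion, stood at 2.06, 3.79 and 0.747 CPM in marker-high cells, against 0.531, 0.781 and 0.814 CPM in naive cells and did not pass the test.

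**Figure D2:**
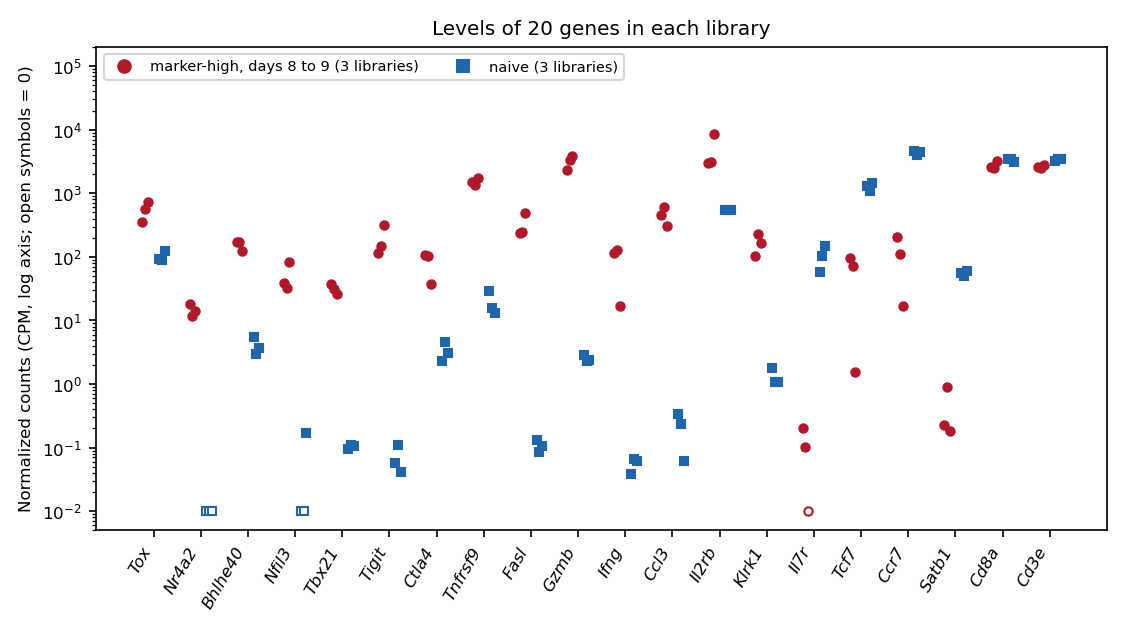
Level of 20 genes (CPM, log axis) in each library, with 3 marker-high libraries as red circles left of 3 naive libraries as blue squares, and open symbols for a level of 0. Tigit, Fasl and Gzmb lie far apart between the groups, Cd8a overlaps, and Tcf7 in marker-high library 3 (1.57 CPM) lies below libraries 1 and 2.

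Genes listed as inhibitory receptors beyond the sort mostly rose: 9 of 13 rose and 2 fell, with a median of 4.63. This list also holds the ligands Pdcd1lg2, Cd274 and Cd200. Tigit, which competes with the costimulatory receptor CD226 for shared ligands, had 114, 150 and 314 CPM in marker-high cells, against 0.0569, 0.108 and 0.0417 CPM in naive cells (11.40 ± 0.63, edgeR adjusted p = 2.74e-07). Ctla4, which competes with CD28, had 106, 104 and 37.0 CPM in marker-high cells, against 2.28, 4.60 and 3.07 CPM in naive cells (4.63 ± 0.55). Havcr2, encoding TIM-3, had 42.5, 94.3 and 50.8 CPM in marker-high cells, against 0.987, 0.0434 and 0 CPM in naive cells (7.47 ± 1.35). None of these 3 overlapped between groups, and Tigit was highest in library 3 whereas Ctla4 was lowest there. Pdcd1lg2, a ligand of PD1, had 30.5, 26.1 and 10.3 CPM in marker-high cells, against 0.114, 0.326 and 0.334 CPM in naive cells (6.43 ± 0.56). Cd160, Cd244, Cd200, Cd200r1 and Lair1 also rose, by 1.71 to 7.14 log2 units. Macrophages too express several of these receptors, among them Lair1, Cd200r1 and Havcr2. The 2 that fell were Vsir, encoding VISTA, with 658, 518 and 853 CPM in marker-high cells, against 1682, 1318 and 1703 CPM in naive cells (−1.21 ± 0.22), and Btla, with 17.4, 13 and 1.93 CPM in marker-high cells, against 33.6, 29.0 and 71.2 CPM in naive cells (−2.05 ± 0.62). The call on Btla was lost without marker-high library 2 or naive library 3 (edgeR adjusted p = 0.0719 and 0.125), and with only the marker-high and naive libraries in the fit (0.0718). Cd274 (PD-L1) stood at 17.3 to 38.4 CPM in marker-high cells, against 19.9 to 31.0 CPM in naive cells, and Cd96 did not pass either.

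Costimulatory receptors moved unevenly, with 5 of 13 higher, 1 lower and a median of 0.70. Members of the tumour necrosis factor receptor family made up 4 of the 5. Tnfrsf9, encoding 4-1BB, which is induced by recent receptor engagement, had 1528, 1341 and 1767 CPM in marker-high cells, against 29.1, 15.4 and 13.2 CPM in naive cells (6.33 ± 0.40, edgeR adjusted p = 7.9e-07). Tnfrsf1b (TNF receptor 2), Tnfrsf4 (OX40) and Tnfrsf18 (GITR) rose by 2.80 ± 0.35, 6.00 ± 1.00 and 1.06 ± 0.29. Slamf7, a self-binding receptor of cytotoxic cells, had 71.5, 90.4 and 73.9 CPM in marker-high cells, against 2.52, 2.67 and 3.80 CPM in naive cells (4.71 ± 0.26). Cd2, the adhesion receptor for CD48, was the member that fell, to 310, 419 and 206 CPM in marker-high cells, against 1057, 1264 and 834 CPM in naive cells (−1.75 ± 0.37). Cd28 stood at 70.0, 74.7 and 6.18 CPM in marker-high cells, against 134, 150 and 162 CPM in naive cells, and neither it nor Icos passed the test.

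The cytotoxic programme was broadly higher: 11 of 14 genes rose, none fell and the median was 1.74. Gzmb, the granzyme that triggers caspases in target cells, had 2324, 3344 and 3808 CPM in marker-high cells, against 2.83, 2.34 and 2.40 CPM in naive cells (10.29 ± 0.57, edgeR adjusted p = 2.79e-07). Fasl, the death ligand, had 234, 242 and 485 CPM in marker-high cells, against 0.133, 0.0868 and 0.104 CPM in naive cells (11.49 ± 0.45, edgeR adjusted p = 2.78e-08). Gzmk had 159, 191 and 108 CPM in marker-high cells, against 0.721, 0.434 and 0.146 CPM in naive cells (8.44 ± 0.78). These 3 genes were near 0 in naive cells and abundant in every marker-high library. Gzma rose by 7.16 ± 0.82 and Gzmc by 3.25 ± 0.63, while Prf1, the pore protein perforin, had 830, 959 and 411 CPM in marker-high cells, against 324, 262 and 321 CPM in naive cells (1.28 ± 0.26). Serpinb9 and Serpinb6b, inhibitors that guard the killer cell's own cytosol against leaked proteases, rose by 2.00 ± 0.30 and 2.89 ± 0.35. Gzmm, Tnfsf10 (TRAIL) and Lamp1 did not pass.

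Of 14 cytokines and chemokines tested, 11 rose, none fell and the median was 8.02, or 7.52 with the genes listed at 0 in all naive libraries set to their lower bound. Ccl3, Ccl4 and Ccl5, chemokines that attract leukocytes, all rose. Ccl4 had 617, 771 and 441 CPM in marker-high cells, against 0.493, 1.11 and 0.814 CPM in naive cells (9.57 ± 0.41, edgeR adjusted p = 5.32e-08), and Ccl3 had 464, 604 and 309 CPM in marker-high cells, against 0.342, 0.239 and 0.0626 CPM in naive cells (11.03 ± 0.64). Ccl5 rose by 7.28 ± 0.81. Ifng, encoding interferon-gamma, had 113, 130 and 17 CPM in marker-high cells, against 0.0380, 0.0651 and 0.0626 CPM in naive cells (10.56 ± 0.86). Library 3 was below libraries 1 and 2 in 13 of these 14 genes, the exception being Ccl5. Xcl1, the ligand that draws cross-presenting dendritic cells, had 319 and 198 CPM in libraries 1 and 2 but 2.86 CPM in library 3, and Il10 had 10.5, 16.5 and 1.36 CPM. Il2, the T cell growth factor, passed the test but stayed low. It had 0.754, 0.784 and 0.129 CPM in marker-high cells, against 0, 0 and 0.104 CPM in naive cells (3.91 ± 1.19). Tnf stood at 46.7, 26.0 and 9.63 CPM in marker-high cells, against 8.48, 17.1 and 9.78 CPM in naive cells and did not pass. Spp1 and Il10, which rose, are also made by macrophages, whose markers were higher in these libraries.

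Cytokine receptors were split, with 6 of 17 higher, 4 lower and 1.19 as the median. Il2rb, the shared beta chain for interleukin-2 and interleukin-15, had 2951, 3151 and 8611 CPM in marker-high cells, against 545, 553 and 548 CPM in naive cells (3.16 ± 0.36, edgeR adjusted p = 7.18e-05). Il12rb1 and Il10ra rose by 2.48 ± 0.29 and 2.65 ± 0.36, and Il15ra, Ifngr1 and Il18rap also rose, although Il18rap overlapped between groups. The 4 that fell included both single receptors and shared chains. Il4ra had 175, 140 and 210 CPM in marker-high cells, against 750, 523 and 752 CPM in naive cells (−1.95 ± 0.28), Il6st, the shared gp130 chain, fell by 2.37 ± 0.56, Tgfbr2 by 1.33 ± 0.43 and Il2rg, the common gamma chain, by 0.78 ± 0.14. Il2ra, the high-affinity interleukin-2 chain CD25, stood at 14.2, 23.3 and 2.83 CPM in marker-high cells, against 0.361, 10.1 and 3.13 CPM in naive cells, and did not pass.

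Receptors shared with natural killer cells rose in 8 of 10 cases, with none lower and a median of 6.91. Klrk1, encoding the activating receptor NKG2D, had 104, 228 and 168 CPM in marker-high cells, against 1.76, 1.06 and 1.06 CPM in naive cells (7.0 ± 0.51, edgeR adjusted p = 2.08e-06). Klrc1, encoding the inhibitory NKG2A, had 114, 206 and 187 CPM in marker-high cells, against 0.0759, 0.695 and 0.0417 CPM in naive cells (9.30 ± 1.00), and Klrc2 had 4.17, 4.38 and 2.94 CPM in marker-high cells, against no count in naive cells, at least 188-fold higher. Both kinds of receptor, activating and inhibitory, were thus higher. Klrc1, Klrc2, Klre1, Klra3 and Klra7 have near-identical relatives, so reads may be shared among them. Klrg1, a marker of terminal effector cells, rose to no more than 6.16 CPM. The markers listed for natural killer cells summed to 3652, 3676 and 3791 CPM in marker-high cells, against 1206, 1828 and 790 CPM in naive cells, and 5 of 7 rose. Most of this sum was Nkg7, with 3052, 3272 and 3103 CPM in marker-high cells, against 1176, 1803 and 777.5 CPM in naive cells. Nkg7 is also in the cytotoxic list and Klrb1c among the shared receptors, so the sum does not measure natural killer cells alone. The defining receptor Ncr1 did not pass, at 22.1, 14 and 2.96 CPM in marker-high cells, against 0.778, 1.19 and 0.25 CPM in naive cells, and Klra8 had no count in naive cells or marker-high library 3.

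Homing genes changed place, with 9 of 19 higher, 4 lower and a median of 2.68. The largest fall was in Itgae, the alpha chain of the CD103 integrin, with 1.66, 1.54 and 0.489 CPM in marker-high cells, against 488, 392 and 649 CPM in naive cells (−8.69 ± 1.37, edgeR adjusted p = 7.06e-04). Ccr9, the receptor for gut homing, had 5.93, 2.96 and 1.73 CPM in marker-high cells, against 333, 328 and 465 CPM in naive cells (−6.73 ± 1.58). Cd69, which holds T cells in tissue and is also an early activation antigen, had 16.2, 20.9 and 25.1 CPM in marker-high cells, against 127, 134 and 133 CPM in naive cells (−2.67 ± 0.51). Marker-low cells, also from lesions, had 57.4, 106 and 197 CPM of Cd69, and late SV40-I cells 10.3, 46.2 and 21.8 CPM. CD103 and CD69 are the usual surface marks of tissue residency, and transcripts of both were lower in marker-high than in naive cells. Zfp683 and Itga1, further residency genes of the list, went the other way. Zfp683 rose by 2.68 ± 0.58. Itga1 had 1.31, 1.77 and 27.7 CPM in marker-high cells, against no count in naive cells, at least 495.5-fold higher. Receptors for inflamed tissue rose in the same cells. Cxcr3 had 712, 690 and 606 CPM in marker-high cells, against 15.2, 71.3 and 10.5 CPM in naive cells (4.37 ± 0.61), and Cxcr6, common on T cells of the liver, had 414, 654 and 2246 CPM in marker-high cells, against 165, 143 and 140 CPM in naive cells (2.89 ± 0.50). Rgs1 and Rgs16, which damp chemokine receptor signalling, rose by 5.06 ± 0.64 and 8.85 ± 1.17.

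Genes of the naive and memory state formed the list with the most falls: 14 of 17 fell, none rose and the median was −4.16. Il7r, the interleukin-7 receptor, was nearly absent, with 0.201, 0.101 and 0 CPM in marker-high cells, against 57.2, 101 and 148 CPM in naive cells (−9.94 ± 1.29, edgeR adjusted p = 1.65e-04). Satb1, a chromatin organiser, had 0.226, 0.885 and 0.180 CPM in marker-high cells, against 56.5, 49.1 and 59.1 CPM in naive cells (−6.98 ± 0.92). Genes for lymph node entry and exit fell together: Ccr7 had 205, 112 and 16.8 CPM in marker-high cells, against 4563, 4031 and 4474 CPM in naive cells (−5.29 ± 0.89), and S1pr1 fell by 6.09 ± 1.13. Tcf7, encoding the stem-like factor TCF1, had 94.3, 71.0 and 1.57 CPM in marker-high cells, against 1283, 1099 and 1447 CPM in naive cells (−4.52 ± 0.93), and Lef1 had 42.0, 48.7 and 3.04 CPM in marker-high cells, against 1397, 1181 and 1413 CPM in naive cells (−5.41 ± 0.88). All marker-high libraries lay far below the naive range, but libraries 1 and 2 kept levels that library 3 did not. Library 3 was below both others in 14 of the 17 genes, and the summed list stood at 657, 531 and 134 CPM in marker-high cells, against 11350, 9967 and 11730 CPM in naive cells. Without library 3, 12 of the 17 fell. Id3 fell by 1.85 ± 0.50, Foxo1 by 2.46 ± 0.54 and Bach2 by 2.56 ± 0.63, while Myb, Il6ra and Dapl1 did not pass the test.

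**Figure D3:**
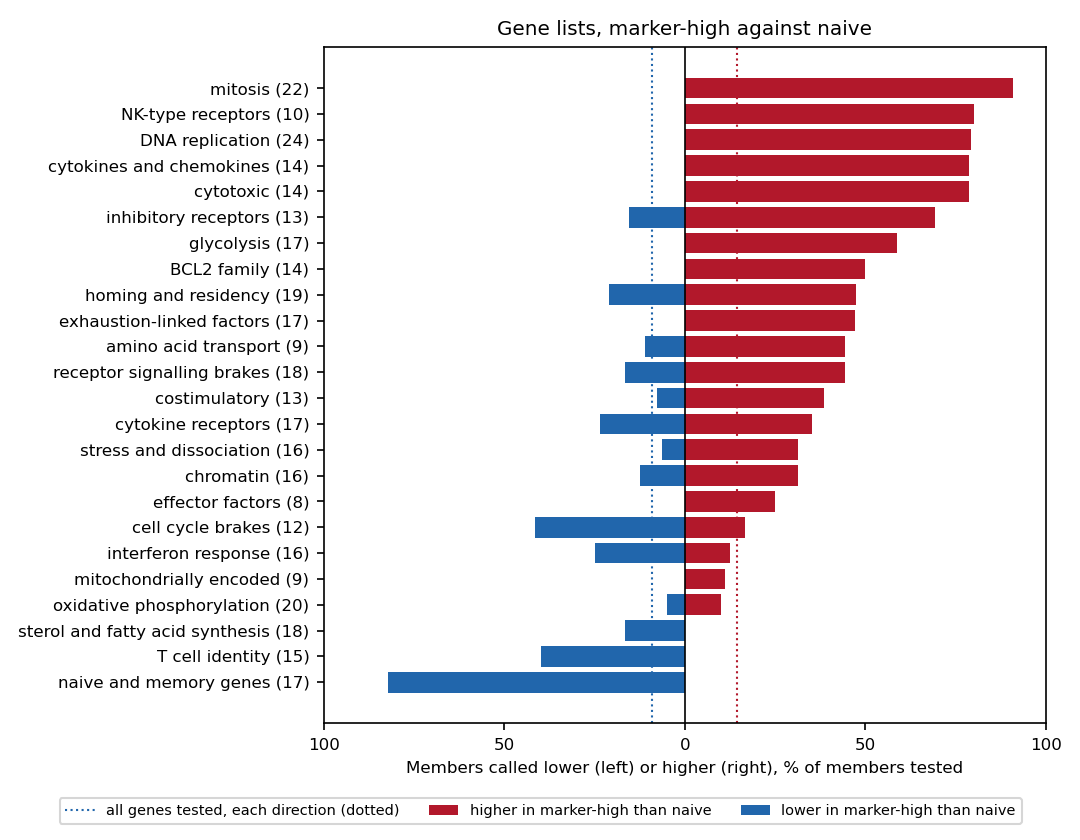
Share of the tested members of each T cell list (number in brackets) that were called higher in marker-high than naive cells (red, right) or lower (blue, left), with dotted lines at the share of all genes tested, 14.3% and 9.1%. Mitosis genes (20 of 22) stand at one end and naive and memory genes (14 of 17 lower) at the other.

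With the macrophage marker level as a covariate, added after the data were seen, fewer members of these lists were called. As above, that covariate follows the groups compared, and the reason for the fewer calls was not tested. Of the lists described so far, 7 naive and memory genes and 1 identity gene fell, and 7 cytotoxic genes, 7 cytokine and chemokine genes, 7 receptors shared with natural killer cells, 4 exhaustion-linked factors and 2 effector factors rose. The inhibitory receptor list then had 5 higher and 1 lower, costimulatory receptors 4 and none, cytokine receptors 3 and 1, and homing genes 5 and 3. Of the lists below, 17 replication, 16 mitosis, 5 BCL2 family and 4 glycolysis genes rose with that covariate and none of these lists had a fall. Negative regulators of receptor signalling had 3 higher and 2 lower, chromatin genes 3 and 1, cycle brakes none and 3, interferon response genes none and 2, stress genes 1 and none, and amino acid transporters 1 and 1. Without marker-high library 3, the cytotoxic and inhibitory receptor lists had 11 and 9 members higher, as with all libraries, and 12 cytokine and chemokine genes rose.

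Cell division was the programme with the most members that rose. Of 24 genes for DNA replication and its onset, 19 rose and none fell, with a median of 2.74, and of 22 mitosis genes 20 rose and none fell, with a median of 6.97 (6.93 with genes at 0 in naive cells set to their bound). Uhrf1, which brings the maintenance methyltransferase to newly copied DNA, had 536, 535 and 302 CPM in marker-high cells, against 25.0, 13.7 and 16.2 CPM in naive cells (4.64 ± 0.33, edgeR adjusted p = 1.62e-06). Rrm2, the regulated subunit of ribonucleotide reductase, had 480, 609 and 305 CPM in marker-high cells, against 9.81, 4.38 and 2.67 CPM in naive cells (6.37 ± 0.45), and its partner Rrm1 had 672, 979 and 516 CPM in marker-high cells, against 102, 60.5 and 126 CPM in naive cells (2.91 ± 0.29). Tk1, the thymidine kinase of S phase, rose by 7.25 ± 0.67. The replicative helicase subunits Mcm2, Mcm3, Mcm5, Mcm6 and Mcm7 were already at 64.6 to 319 CPM in naive cells and rose by 1.82 to 2.87, whereas Cdc6, which loads them, had 229, 196 and 102 CPM in marker-high cells, against 4.63, 0.174 and 0.146 CPM in naive cells (6.72 ± 1.15). Mcm4, Ccne2, Cdt1, Pola1 and E2f1 did not pass.

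The mitosis list had the larger median difference of both lists. Plk1, the kinase that drives mitotic entry, had 461, 502 and 221 CPM in marker-high cells, against 2.73, 3.67 and 2.50 CPM in naive cells (7.05 ± 0.39, edgeR adjusted p = 2.74e-07). Ccnb2, a mitotic cyclin, had 283, 389 and 214 CPM in marker-high cells, against 1.39, 0.521 and 1.11 CPM in naive cells (8.19 ± 0.53), and Aurka, the spindle kinase, had 269, 300 and 115 CPM in marker-high cells, against 7.99, 10.3 and 9.03 CPM in naive cells (4.65 ± 0.34). Their partners moved with them: Cdk1 rose by 7.24 ± 0.55, Cdc20 by 4.65 ± 0.35, Aurkb by 7.74 ± 0.63, Birc5 by 7.21 ± 0.69 and Foxm1, a factor that activates mitotic genes, by 7.53 ± 0.77. Summed over the list, mitosis genes stood at 3502, 4439 and 1995 CPM in marker-high cells, against 52.4, 40.9 and 39.3 CPM in naive cells, and library 3 was below both others in 17 of the 22 genes. Without library 3 the counts were again 20 and 19 genes higher. Mki67 and Cenpe, with at most 1.31 CPM in any of the 6 libraries, did not pass.

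The list of cycle brakes, which also holds the cyclins Ccnd2 and Ccnd3, was mixed, with 2 of 12 higher and 5 lower. Over all genes tested 14.3% rose and 9.1% fell, so the 2 rises are near the general share. Cdkn1a (p21) had 14.3, 12.4 and 13.2 CPM in marker-high cells, against 0.171, 0.586 and 0.146 CPM in naive cells (5.46 ± 1.00), and Cdkn2a had at most 0.927 CPM in marker-high cells, against no count in naive cells, at least 31.9-fold higher, a call lost without any 1 of the naive libraries (edgeR adjusted p = 0.0554 to 0.0596). Inhibitors and antiproliferative genes of resting cells fell: Cdkn2d (p19) by 1.93 ± 0.27, Cdkn1b (p27) by 1.71 ± 0.43, Btg2 by 1.45 ± 0.25 and Btg1 by 0.79 ± 0.23. The fifth was the cyclin Ccnd3, which fell by 0.94 ± 0.23. With the macrophage covariate Cdkn1a stood at 2.15, Cdkn2a at 5.01 and Ccnd3 at −0.82. None of these was then called (edgeR adjusted p = 0.225, 0.294 and 0.218).

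Promoters of these genes are shown because members of both lists moved together. RefSeq windows (GRCm38.p6, 250 bases before to 50 after the start) were matched for 19 of the 24 replication genes and 16 of the 22 mitosis genes. E2F-like letters, TTCCCGC or TTGGCGC on either strand, were held by 11 of the 19 replication genes with a window (57.9%), against 7.8% of all 27025 genes with a window and 13.6% of genes tested here. CCAAT together with TTTGAA, the letters of the cell cycle homology region, both on either strand, were held by 11 of the 16 mitosis genes (68.8%), against 8.0% of all genes and 6.0% of genes tested. Matches can share letters: TTGGCGC overlaps the reverse complement of CCAAT, and TTTGAA can do so by 1 base with CCAAT on either strand. The lines below hold, for each list, the pair with the smallest adjusted p among members with the letters, in lower case from 5′ to 3′ on the gene's strand with each match to the letters of its own list in capitals. They lie at chr17:56303087-56303386 (Uhrf1, plus strand), chr7:102441445-102441744 (Rrm1, plus), chr7:122159185-122159484 (Plk1, plus) and chr9:70421505-70421804 (Ccnb2, minus).
Uhrf1: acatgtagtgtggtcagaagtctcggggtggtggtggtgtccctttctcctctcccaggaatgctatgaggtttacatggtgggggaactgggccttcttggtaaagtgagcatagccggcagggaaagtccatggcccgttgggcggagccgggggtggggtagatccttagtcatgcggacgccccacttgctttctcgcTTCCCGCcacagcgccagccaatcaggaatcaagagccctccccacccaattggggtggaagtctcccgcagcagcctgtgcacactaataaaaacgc
Rrm1: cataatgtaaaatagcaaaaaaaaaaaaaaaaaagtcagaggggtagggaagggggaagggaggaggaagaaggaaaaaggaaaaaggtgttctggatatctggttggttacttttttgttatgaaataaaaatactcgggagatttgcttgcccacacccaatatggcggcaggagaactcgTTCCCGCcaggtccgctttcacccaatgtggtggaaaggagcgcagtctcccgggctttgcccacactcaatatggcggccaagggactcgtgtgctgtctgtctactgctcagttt
Plk1: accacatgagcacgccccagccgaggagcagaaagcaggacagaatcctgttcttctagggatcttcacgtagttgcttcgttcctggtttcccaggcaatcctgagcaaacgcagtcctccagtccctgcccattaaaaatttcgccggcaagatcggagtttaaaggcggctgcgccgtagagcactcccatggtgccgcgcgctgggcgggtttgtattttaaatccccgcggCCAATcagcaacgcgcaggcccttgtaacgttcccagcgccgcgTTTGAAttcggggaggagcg
Ccnb2: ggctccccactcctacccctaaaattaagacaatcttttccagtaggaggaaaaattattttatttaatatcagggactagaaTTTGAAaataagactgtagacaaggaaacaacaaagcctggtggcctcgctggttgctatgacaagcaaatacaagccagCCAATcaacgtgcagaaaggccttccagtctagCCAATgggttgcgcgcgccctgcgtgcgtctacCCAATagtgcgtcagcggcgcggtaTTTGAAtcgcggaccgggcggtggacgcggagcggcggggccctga

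The Uhrf1 and Rrm1 windows each hold 1 match of the E2F-like letters. The Plk1 window holds CCAAT and TTTGAA once each, and the Ccnb2 window holds CCAAT in 3 places and TTTGAA in 2. Over all genes that rose, the E2F-like letters were present in 16.0% of those with a window, against 13.3% of genes not called, and the CCAAT and TTTGAA pair in 8.8% of genes that rose, against 5.5% of genes not called. For letters tied to receptor-induced factors, both strands, TGANTCA (AP-1-like) was present in 8.2% of the genes that rose and 6.5% of genes tested, and AAGGTCA (NR4A-like) in 3.7% and 4.3%. A match describes the letters and is not a binding site.

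**Figure D4:**
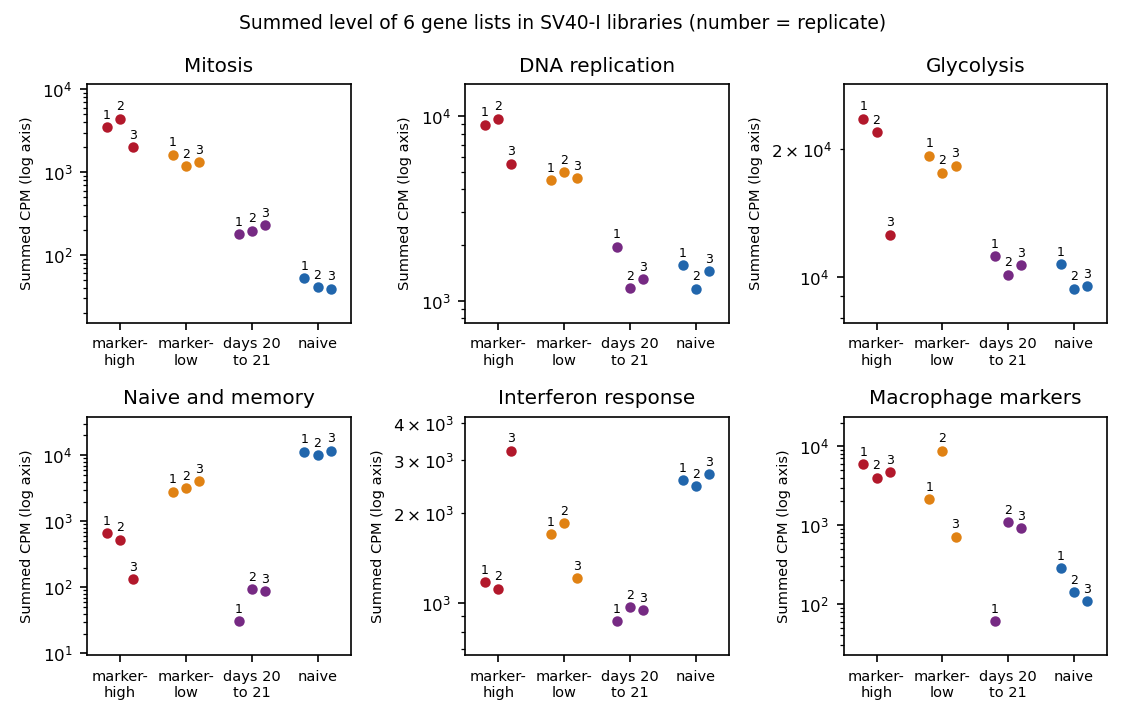
Summed level (CPM, log axis) of 6 gene lists in each SV40-I library, 1 numbered point a library, for marker-high, marker-low, late (days 20 to 21) and naive cells from left to right. The mitosis sum is 1995 to 4439 CPM in marker-high cells, against 39.3 to 52.4 CPM in naive cells, and marker-high library 3 lies apart from libraries 1 and 2 in the glycolysis, naive and memory and interferon panels.

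Glycolysis rose in part, with 10 of 17 genes higher, none lower and a median of 0.94. Tpi1 had 1390, 1325 and 588 CPM in marker-high cells, against 127, 135 and 111 CPM in naive cells (3.15 ± 0.29, edgeR adjusted p = 1.38e-05). Pfkp, the platelet-type phosphofructokinase, was even across libraries, with 940, 965 and 960 CPM in marker-high cells, against 425, 340 and 422 CPM in naive cells (1.27 ± 0.15), and Gapdh had 2663, 2665 and 1231 CPM in marker-high cells, against 633, 641 and 485 CPM in naive cells (1.90 ± 0.29). Slc16a3, the lactate exporter, rose by 4.36 ± 0.75. The glucose transporters Slc2a1 and Slc2a3 did not pass. Ldha, which makes lactate, passed at 0.94 ± 0.30, but its value in library 3 (2328 CPM) was below the lowest naive value of 2340 CPM. Oxidative phosphorylation moved little: 2 of 20 nuclear genes rose (Cox5a and Uqcrc1), Sdha fell, and the median was 0.27. Both counts lie below the general shares of 14.3% higher and 9.1% lower. Without library 3, 6 of these 20 rose. Of 9 mitochondrially encoded genes tested, mt-Nd3 rose. These 4 calls turned on single libraries. Without naive library 3 the edgeR adjusted p was 0.116 for Cox5a, 0.14 for Uqcrc1, 0.0542 for Sdha and 0.0897 for mt-Nd3, and leaving out marker-high library 2 also ended all 4, with 0.0504 to 0.117. Cox5a, Uqcrc1 and mt-Nd3 lost theirs without marker-high library 1 or naive library 1 too, and Uqcrc1 and mt-Nd3 without naive library 2 (0.0502 to 0.151 over all of these).

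Amino acid transport gave 4 of 9 higher and 1 lower. Over all genes tested 14.3% rose and 9.1% fell, so the fall is near the general share. Slc1a5, the glutamine transporter, had 34.2, 36.4 and 31.7 CPM in marker-high cells, against 10.5, 17.1 and 12.4 CPM in naive cells (1.35 ± 0.30), and Slc7a11 (cystine) and Slc38a1 (glutamine) rose by 3.88 ± 0.92 and 0.80 ± 0.19. Slc43a2 (neutral amino acids) fell by 1.48 ± 0.30. With the macrophage covariate Slc7a11 stood at 1.61 and Slc38a1 at 0.74, and neither was called (edgeR adjusted p = 0.479 and 0.203). Both calls also ended with the hepatocyte covariate (edgeR adjusted p = 0.0944 and 0.146). No gene of sterol and fatty acid synthesis rose among 18, and Srebf2, the master factor of sterol genes, fell to 249, 237 and 282 CPM in marker-high cells, against 533, 518 and 791 CPM in naive cells (−1.26 ± 0.22), with Fdps and Sqle also lower. Leaving out any library but naive 3 or marker-high 1 ended the call on Fdps, and any but naive 2 that on Sqle (edgeR adjusted p = 0.0538 to 0.0857 and 0.0525 to 0.198).

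Negative regulators of receptor signalling were split, with 8 of 18 higher and 3 lower. Ubash3b, a phosphatase that opposes receptor-proximal kinases, had 60.9, 73.7 and 55.4 CPM in marker-high cells, against 1.1, 1.41 and 1.88 CPM in naive cells (5.43 ± 0.38, edgeR adjusted p = 1.52e-06). Spry1, an inhibitor of Ras signalling, had 43.8, 31.3 and 7.24 CPM in marker-high cells, against no count in naive cells, at least 1350-fold higher. The 2 diacylglycerol kinases of the list, which remove a lipid that activates Ras, were called in opposite directions. Dgka had 220, 246 and 225 CPM in marker-high cells, against 1223, 960 and 1251 CPM in naive cells (−2.31 ± 0.17), and Dgkz had 230, 179 and 316 CPM in marker-high cells, against 80.2, 85.3 and 77.7 CPM in naive cells (1.58 ± 0.27). Dusp5 and Dusp6, phosphatases of ERK, and Cblb, a ubiquitin ligase that restrains activation, rose by 2.14 ± 0.37, 1.80 ± 0.36 and 1.6 ± 0.29, while Dusp10 and Socs3 fell by 1.61 ± 0.21 and 2.81 ± 0.72, the last without its call when marker-high library 2 was left out (edgeR adjusted p = 0.0594).

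Interferon response genes did not move together: 2 of 16 rose, 4 fell and the median was −0.46. Over all genes tested 14.3% rose and 9.1% fell, so the 2 rises are near the general share. Library 3 was above both other marker-high libraries in all 16. The list summed to 1172, 1116 and 3224 CPM in marker-high cells, against 2566, 2461 and 2699 CPM in naive cells. The 2 that rose, Mx1 (2.53 ± 0.70) and Oas1a (1.54 ± 0.44), lost their calls without library 3, among other libraries given below. Without library 3 Mx1 stood at 2.00 with an edgeR adjusted p of 0.0685 and Oas1a at 0.72 with 0.118, and 8 of the 16 fell with none higher. Usp18, which restrains interferon signalling, had 64.6, 64.3 and 179 CPM in marker-high cells, against 238, 272 and 267 CPM in naive cells. Usp18, Gbp2 and Bst2 fell by 1.33 ± 0.33, 1.35 ± 0.36 and 1.23 ± 0.28. Leaving out marker-high library 1 or 2 ended the call on Usp18 (edgeR adjusted p = 0.057 and 0.0566), and naive library 1 those on Mx1 and Oas1a (0.0738 and 0.0878). Mx1 also lost its call without naive library 2 and Oas1a without naive library 3 (0.0784 and 0.072). Oas1a has close copies among which reads can be split.

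Stress and dissociation genes gave 5 of 16 higher and 1 lower, where 14.3% and 9.1% of all genes tested rose and fell. Atf3, an early stress factor, had 26.6, 13 and 19.8 CPM in marker-high cells, against 0.0759, 0.0217 and 0.0209 CPM in naive cells (8.84 ± 1.23), and Fos had 202, 123 and 25.3 CPM in marker-high cells, against 7.67, 13.4 and 5.51 CPM in naive cells (3.72 ± 0.92). Hsp90ab1 rose by 0.87 ± 0.21 and Dnajb1 fell by 1.07 ± 0.26, and Jun, Junb and Zfp36 did not pass. Fos lost its call without naive library 3 and Hsp90ab1 without marker-high library 2 (edgeR adjusted p = 0.0538 and 0.0527). With the macrophage covariate Fos stood at 0.96 and was not called (edgeR adjusted p = 0.673). Library 3 was below both other marker-high libraries in 12 of the 16 genes.

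Genes of the BCL2 family rose on both the protective and the killing side, 7 of 14 in all with none lower. Over all genes tested 14.3% rose and 9.1% fell. Bcl2l11, encoding the killer BIM, had 267, 331 and 1005 CPM in marker-high cells, against 28.6, 26.3 and 55.4 CPM in naive cells (3.86 ± 0.49). Bid, another killer, had 193, 193 and 178 CPM in marker-high cells, against 81.7, 76.2 and 69.9 CPM in naive cells (1.31 ± 0.15, edgeR adjusted p = 6.25e-05). On the protective side Bcl2l1 rose by 1.46 ± 0.20 and Bcl2a1d by 5.61 ± 0.52, which belongs to a cluster of near-identical copies. Bcl2 and Mcl1 did not pass. Among 16 chromatin genes 5 rose and 2 fell, and the 2 falls are near the general share of 9.1%. Hmgb2, a DNA-bending protein of dividing cells, had 575, 905 and 426 CPM in marker-high cells, against 33.6, 42.5 and 24.6 CPM in naive cells (4.24 ± 0.39), Dnmt1 and Dnmt3b, the maintenance and a de novo methyltransferase, rose by 1.26 ± 0.24 and 2.30 ± 0.40, and Tet3, which oxidises methylcytosine, fell to 16.8, 16.8 and 18.8 CPM in marker-high cells, against 61.5, 69.2 and 83.4 CPM in naive cells (−2.03 ± 0.22). Smc4, a condensin subunit, fell by 2.51 ± 0.64, without its call when marker-high library 1 or 2 or naive library 2 was left out (edgeR adjusted p = 0.0534 to 0.064).

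The 12 largest rises among genes at or above 10 CPM were mostly in genes without a count in naive cells. Calcb on chromosome 7, encoding the beta form of the neuropeptide calcitonin gene-related peptide, had 82.6, 83.9 and 125 CPM in marker-high libraries and none in naive ones, at least 4738-fold higher. It stood at 1.24, 0.774 and 0.874 CPM in marker-low cells and at 209, 261 and 154 CPM in late SV40-I cells. Mrc2, a collagen receptor, had 7.27, 16.1 and 138 CPM in marker-high cells, at least 2607-fold higher, and Ccdc80, a secreted matrix protein, had 10.0, 15.9 and 1665 CPM in marker-high cells, against 0.0759, 0.0868 and 0.0209 CPM in naive cells (13.10 ± 2.38). Tmprss6, a membrane protease known from hepcidin control in liver, had 9.58, 10.3 and 221 CPM (ratio 11630, 95% interval 2087 to 459400, over a single naive count). For Mrc2, Ccdc80, Tmprss6 and Kndc1 (5.66, 10.5 and 47.8 CPM) library 3 held the most, by far. Slc9b2, a sodium-proton exchanger, ran the other way with 81.2, 44.8 and 1.21 CPM, and Mtfr2, a mitochondrial fission regulator, had 37.2, 55.2 and 23.9 CPM. The clone-named locus RP24-95J4.3, Spry1, Ldlrad3, Mmp12 and C3ar1 completed the 12, of which Ldlrad3 lost its call without any 1 library other than marker-high 3 (edgeR adjusted p = 0.0502 to 0.0754).

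Mmp12, a macrophage elastase, had 37.7, 19.0 and 17.8 CPM in marker-high cells, and C3ar1, a complement receptor of myeloid cells, had 21.6, 10.7 and 25.9 CPM, both with no count in naive cells. In late SV40-I library 1 the macrophage markers summed to 61.0 CPM, below every naive library. It held Calcb at 209 CPM, Mrc2 at 199 CPM, Tmprss6 at 227 CPM, Ccdc80 at 116 CPM and Spry1 at 20.2 CPM. It held no count of Mmp12 or Ldlrad3 and 0.794 CPM of C3ar1. The part of macrophages in the rise of any of these genes was not tested.

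Among the 12 largest falls, Slc16a5, a monocarboxylate transporter relative, had 0.0503, 0.0506 and 0.0258 CPM in marker-high cells, against 612, 537 and 734 CPM in naive cells (−13.76 ± 1.58). Slc6a19, a neutral amino acid transporter known from gut and kidney, had 4.47, 1.32 and 0.129 CPM in marker-high cells, against 704, 663 and 1034 CPM in naive cells (−8.66 ± 1.28). Both were abundant in each naive library. Lman1l and Mmp15, a membrane metalloproteinase, had no count in marker-high cells, at least 493-fold and 472-fold lower. Il7r and Itgae, described above, belong to the same 12, with Tdrp (−8.93 ± 1.07), Cyp2s1 (−8.66 ± 1.52), Prrg1 (606-fold lower, 95% interval 168 to 5008) and 3 clone-named loci.

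**Figure D5:**
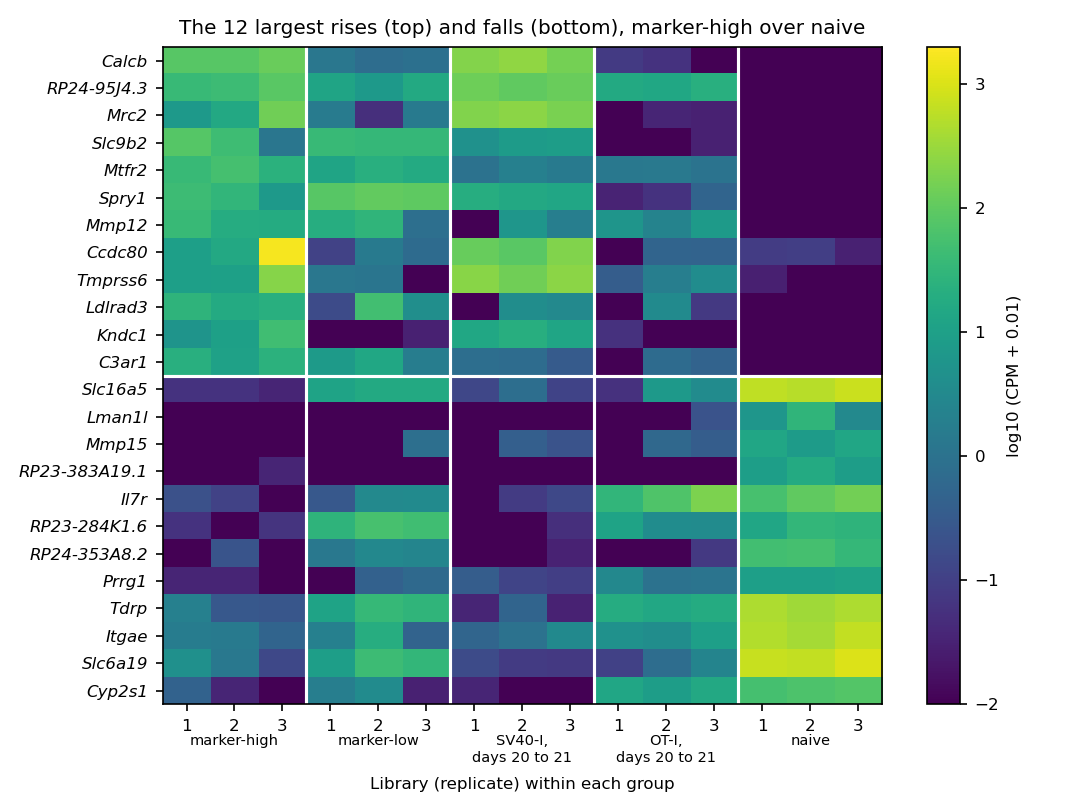
Colour map of log10 (CPM + 0.01) for the 12 genes with the largest rises (upper rows) and the 12 with the largest falls (lower rows), 1 column a library, with marker-high at the left and naive at the right. Most genes that rose have no count in naive libraries, and Slc16a5 stands at 0.0258 to 0.0506 CPM in marker-high libraries, against 537 to 734 CPM in naive libraries.

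Marker-high cells were set against the other SV40-I lesion cells by direct tests in the same fit, since all comparisons with naive cells share the naive libraries. Against late SV40-I cells 874 genes differed (5.33% of genes tested), of which 585 were higher (3.57%) and 289 lower (1.76%). Time and the marker gate both differ here and cannot be told apart. Each library weighed on these counts: without marker-high library 3 there were 897 higher and 772 lower, without library 1 or 2 there were 271 and 59 or 261 and 50, and without 1 late library 271 to 388 and 97 to 167. With the macrophage marker level as a covariate 117 were higher and 36 lower, with only the marker-high and late libraries in the fit 264 and 61, and with DESeq2 1273 and 992. Many cell cycle genes were among them: 18 of 24 replication genes and 14 of 22 mitosis genes were higher in marker-high cells, with medians of 2.48 and 3.96, against −0.04 over all genes. Plk1 had 461, 502 and 221 CPM in marker-high cells, against 23.0, 14.4 and 24.8 CPM in late cells (4.25 ± 0.34, edgeR adjusted p = 5.25e-05). The mitosis list summed to 178, 197 and 228 CPM in late cells, which lies below every marker-high library and above every naive library. Glycolysis genes were higher in 6 of 17 cases. Naive and memory genes were higher in 7 of 17: Tcf7 was at 2.26, 2.44 and 1.01 CPM in late cells (marker-high minus late, 4.87 ± 0.96) and Id3 at 2.85, 6.49 and 10.5 CPM in late cells (3.05 ± 0.53). Marker-high library 3 was close to the late cells for Tcf7, at 1.57 CPM. Tox, Pdcd1 and Tigit were not called between these groups, and late cells had 702, 875 and 988 CPM of Tox.

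Against marker-low cells of the same days 196 genes differed (1.19%), of which 78 were higher (0.475%) and 118 lower (0.719%). Tox had 358, 571 and 731 CPM in marker-high cells, against 132, 101 and 48.0 CPM in marker-low cells (2.56 ± 0.36, edgeR adjusted p = 0.00662), and the marker-low values thus spanned the naive ones of 89.5 to 124 CPM. Tigit, Gzmb, Gzma and Cxcr6 were also higher, by 2.19 ± 0.39, 3.23 ± 0.42, 4.70 ± 0.73 and 4.24 ± 0.53. Nr4a1 was lower, with 271, 173 and 112 CPM in marker-high cells, against 751, 1268 and 971 CPM in marker-low cells (−2.43 ± 0.46), as were Tnf (−2.74 ± 0.48), Il2 (−5.44 ± 1.11) and Satb1 (−4.61 ± 0.83). Mitosis genes were high in marker-low cells as well, where the list summed to 1625, 1183 and 1321 CPM, and Plk1 and Aurka alone of the 22 passed the test (1.39 ± 0.30 and 1.64 ± 0.30). With only the marker-high and marker-low libraries in the fit, 1 gene was higher and 3 were lower, and without marker-low library 3 in the full fit 13 were higher and 25 lower. Leaving out marker-high library 2 gave 47 and 34, marker-low library 1 gave 37 and 55, and marker-high library 1 or 3 gave 71 lower each.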

How the data were processed

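RNA from 19 libraries of sorted mouse CD8 T cells was sequenced as paired ends after SMART-seq v4 amplification, per the labels' protocols. The deposited values are whole-number counts of fragments per gene, not normalized, made by the authors per the file headers with featureCounts 1.6.2, which summed GENCODE M17 exons (GRCm38) over each gene name. FastQC, STAR and DESeq2 are also named in the submitters' processing notes, with versions not given in the sources used here. No strand option stands in the headers, so overlapping and antisense genes are not separated, and values of clone-named loci and of near-identical families (Klra, Klrc, Oas1, Bcl2a1, Cd244) are uncertain.

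Groups came from the labels. The 15 ex vivo libraries were fitted together in R 4.3.3 with edgeR 4.0.16 (TMM, filterByExpr, 1 coefficient per group, robust quasi-likelihood F tests), leaving 16404 of 53656 genes, with Benjamini-Hochberg adjustment. The 4 cultured libraries were not used here. Alternatives were DESeq2 1.42.0, other scalings and filters, a fit of only the groups compared, a replicate block, hepatocyte and macrophage marker covariates (the macrophage one added after seeing the data) and leaving out each library. Genes without counts in a group are given against a floor of 3 counts over that group, and ratios have exact 95% intervals. Both cover counting error only, since amplified reads carry no molecular identifiers. At totals of 38830547 to 51599398 counts, no pair of replicates agreed within counting error (chi-square over its degrees of freedom was 74 or more), and all counted singly. Nothing in the labels ties replicates to separate animals. A p-value here thus covers only the spread among the libraries of a group, which may be technical.

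The comparison and the gene lists were chosen with earlier results of these data known. Named genes are Tox and the gate genes, in each list up to 3 called members with the smallest p in each direction, and, of called genes without overlap between groups and averaging at least 10 CPM in the higher one, the 12 that rose most and the 12 that fell most. Other list members are given where their list is described, and some further genes, in the closing section, were chosen after their values were seen. Promoter windows are RefSeq's for GRCm38.p6. A few genes of the lists are not reported here.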

Additional observations from a re-analysis of the deposited data

Results flagged for a closer look

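Levels of the genes named against naive cells also differed in direct tests between lesion groups (edgeR quasi-likelihood test, same fit, adjusted p under 0.05). Groups of 3 libraries were not tested for outlying samples. For marker-high minus late SV40-I cells the log2 differences were positive for the cell cycle genes Uhrf1 (3.69), Rrm2 (4.19), Tk1 (2.49), Plk1 (4.25), Ccnb2 (4.30), Aurka (4.19), Hmgb2 (2.92) and Dnmt1 (1.09). They were also positive for Lef1 (4.33), Btla (3.33), Tpi1 (1.37), Gapdh (1.23), Sqle (1.95), Usp18 (1.65), Hsp90ab1 (0.94), Fos (3.42), Mtfr2 (4.68) and C3ar1 (4.97). Il2rb (−1.29), Slc1a5 (−1.26) and Btg2 (−0.98) were lower in marker-high than in late cells, although Il2rb and Slc1a5 rose against naive cells.

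For marker-high minus marker-low cells the log2 differences were positive for the gate genes Pdcd1 (2.34) and Entpd1 (2.84) and for Tox (2.56), Tigit (2.19), Gzmb (3.23), Plk1 (1.39), Aurka (1.64), Calcb (6.66), RP24-95J4.3 (2.21) and Ccdc80 (9.56). Kndc1 was 2855-fold higher in marker-high cells (95% interval 511.9 to 112800, over a single marker-low count). The differences were negative for Satb1 (−4.61), Il4ra (−2.35), Cd69 (−2.54), Dgka (−1.23), Cdkn2d (−1.43), Tet3 (−1.30), Slc16a5 (−8.38), RP23-284K1.6 (−10.25) and Tdrp (−4.90). Gate and the WT and KO letters of the table headings cannot be told apart in these values.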

How the results depend on the processing

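Every gene named by rule kept its direction in every alternative that gave it an adjusted p, and 98 of 115 kept their call in all alternatives other than the 2 covariates. The 17 others each lost it without some 1 library, among them Btla, Cdkn2a, Cox5a, Fdps, Fos, Hsp90ab1, Ldlrad3, Mx1, Oas1a, Sdha, Smc4, Socs3, Sqle, Uqcrc1, Usp18 and mt-Nd3. The gate genes aside, the 115 were picked by small p or large change in the main fit, which favours a kept call. Over all genes, 1647 of the 2349 that rose and 732 of the 1492 that fell kept their call without marker-high library 2. Calls also ended without a filter for Fdps, Ldlrad3, Sqle, Uqcrc1 and mt-Nd3, and with only the 2 groups in the fit for Btla, Oas1a, Sqle and Uqcrc1. Counts are given as higher and then lower, with 2349 and 1492 against naive, 78 and 118 against marker-low and 585 and 289 against late cells. DESeq2 gave 3135 and 2313 against naive, 339 and 410 against marker-low and 1273 and 992 against late cells. The hepatocyte covariate gave 1017 and 802 against naive. The macrophage covariate, added after seeing the data, gave 829 and 536 against naive and 117 and 36 against late cells. It ended the calls on 33 of the 115 genes, Tox among them, and the hepatocyte covariate those on 22. Both covariates follow the split between marker-high and naive libraries. RNA of other cells and lost precision thus cannot be told apart in these losses. Fitting only the groups compared gave 1 and 3 against marker-low and 264 and 61 against late cells. A stricter filter (5 CPM in 3 libraries) gave 122 higher against marker-low and 457 lower against late cells, and no filter gave 171 lower against late cells. Leaving out 1 library gave 1542 to 2150 and 745 to 1431 against naive, 13 to 73 and 25 to 86 against marker-low, and 261 to 897 and 50 to 772 against late cells. The cause of these shifts was not tested, beyond the fewer samples. Same-numbered marker-high and naive libraries deviated together with r of 0.073, 0.078 and 0.102. Each marker-high library was closest to the naive library of its own number, which is a hint and not a design. Against marker-low libraries the same-numbered r was 0, −0.218 and −0.036, and against late libraries 0.046, −0.016 and 0.098, so the pattern did not hold in every group. With the replicate block the counts were 2237 and 1588, 59 and 85, and 543 and 312, and of the 115 genes Btla alone lost its call (edgeR adjusted p = 0.0615). With 3 libraries a group, small changes of low genes are not resolved.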

Other observations

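Some genes outside the lists separated the groups with little spread. They were chosen after their values were seen. St14, the membrane protease matriptase, had 194, 200 and 238 CPM in marker-high cells, against 0.816, 0.434 and 0.688 CPM in naive cells (8.34 ± 0.44). Mlkl, the executor of necroptosis, had 28.3, 33.9 and 42.6 CPM in marker-high cells (ratio 2559 over naive cells, 95% interval 707.9 to 21140). Plscr1, a phospholipid scramblase, rose by 6.89 ± 0.39, Acot7, an acyl-CoA thioesterase, by 5.41 ± 0.35 and Kcnk5, a potassium channel, by 6.20 ± 0.50. Ptger2, a receptor for prostaglandin E2, rose by 4.77 ± 0.39 and Lrmp by 2.76 ± 0.17, and Fam65b fell by 2.76 ± 0.16. Lig1, the replicative DNA ligase, which is outside the replication list, rose by 3.3 log2 units.

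Mki67, the usual protein marker of dividing cells, was nearly uncounted while other cycle genes were abundant. Per kilobase of merged exons it averaged 0.105 CPM in marker-high cells, Cenpf 0.164 and Cenpe 0.0879. Over the 46 cell cycle genes, the 34 with under 5 kb of exon had a median of 54.8 CPM per kilobase and the 12 longer ones 6.79. Of the longer genes, Mcm2 (138), Rrm1 (65.6) and Tk1 (57.3) lay above the median of the shorter ones. Some shorter genes were low too, among them Ccne2 (0.553), Bub1 (0.563) and Kif11 (1.79). As a description over genes that share libraries, Spearman's rank correlation between length and level per kilobase was −0.398. Of the mitochondrially encoded genes, mt-Nd4l and mt-Atp8 had no count in any of the 6 libraries, while mt-Co1 stood at 648 to 1003 CPM in marker-high and 1171 to 1239 CPM in naive libraries.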
